A study of Mus musculus with 12 samples.

Results

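DNA methylation was examined at 10 genes that encode proteins of neutrophil granules and of the neutrophil cytosol: Elane, Prtn3, Mpo, Ctsg, Ltf, Camp, Ngp, S100a8, S100a9 and Mmp9. The genes were taken by name. Each locus ran from 5 kb outside one gene end, through the mm10 gene body, to 5 kb outside the other. CpGs counted where both strands together had at least 10 calls in all 12 libraries, and are called common CpGs here. By this rule 7 of the 10 genes had a measured locus, and Camp, S100a8 and S100a9 had no common CpG. The 7 loci held 201 different common CpGs of 1052856 in all, each read by 10 to 923 calls in a library (median 85.5). They held 59 CpGs for Elane, 36 for Prtn3, 25 for Mpo, 5 for Ctsg, 34 for Ltf, 5 for Ngp and 69 for Mmp9. The loci of Elane and Prtn3 are neighbours and share 32 CpGs. For comparison, 18114 of 21631 protein-coding genes had a locus with at least 1 common CpG.

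The cells were CMM cells, a GFP-positive mouse model of acute myeloid leukaemia with inv(16), injected by vein into C57BL/6 mice. Once about 1% of blood cells were GFP-positive, the mice received 3 intravenous doses, on alternate days, of PBS or of CpG-STAT3dODN, a CpG oligonucleotide linked to a STAT3 decoy. GFP-positive spleen cells were taken 1 day after the last dose. In PBS mice all GFP-positive cells were collected, and in treated mice those without and with the myeloid surface protein CD11b, giving 4 libraries each of PBS, CD11b-negative and CD11b-positive cells. All 3 groups thus carried the same leukaemia in the same host strain. PBS cells were not divided by CD11b, so in a comparison with PBS the treatment and the sorting cannot be told apart. The CD11b-positive and CD11b-negative cells had the same treatment. Nothing in the labels ties libraries to separate animals, so p-values measure the spread between libraries only. The assay was reduced representation bisulfite sequencing, in which unmethylated cytosines are converted and each read across a CpG calls it methylated or not. It reads pools of cells, so a change in the mixture of cells and a change of methylation within a cell type cannot be told apart.

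Neutrophil precursors make granule proteins in waves as they mature. Elane (neutrophil elastase), Prtn3 (proteinase 3), Ctsg (cathepsin G) and Mpo (myeloperoxidase) fill the azurophil granules of promyelocytes, and leukaemic blasts of the granulocyte lineage often make them too. Ltf (lactoferrin), Camp (the cathelicidin precursor) and Ngp (neutrophilic granule protein) belong to the specific granules made later, at the myelocyte and metamyelocyte stages. Mmp9 (gelatinase B) marks the gelatinase granules, which come later still. S100a8 and S100a9 form calprotectin, a calcium-binding complex of the cytosol. PU.1, C/EBP and RUNX factors are known regulators of several of these genes. Methylation near a gene's start and at its enhancers is often low in cells that use the gene, but methylation of one CpG does not by itself give the expression of a gene.

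Of the 9 members with a promoter in the RefSeq table, 8 had fewer CGs there than the median promoter, and none of the common CpGs lay in these 9 windows. The sequences that follow, from RefSeq on GRCm38.p6 (the build of mm10), show the 250 bases before the start of 4 members whose loci held called CpGs, with every CG in capitals. The Elane sequence covers chromosome 10, 79886062 to 79886311, plus strand. That of Mpo covers chromosome 11, 87793534 to 87793783, plus strand. Those of Ltf and Ngp lie on chromosome 9, plus strand, at 111019042 to 111019291 and 110419558 to 110419807.
Elane: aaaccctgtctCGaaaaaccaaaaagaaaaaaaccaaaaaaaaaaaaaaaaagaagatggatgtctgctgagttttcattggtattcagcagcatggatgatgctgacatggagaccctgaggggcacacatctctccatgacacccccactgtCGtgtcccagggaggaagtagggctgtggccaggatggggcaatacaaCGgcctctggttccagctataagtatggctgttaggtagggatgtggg
Mpo: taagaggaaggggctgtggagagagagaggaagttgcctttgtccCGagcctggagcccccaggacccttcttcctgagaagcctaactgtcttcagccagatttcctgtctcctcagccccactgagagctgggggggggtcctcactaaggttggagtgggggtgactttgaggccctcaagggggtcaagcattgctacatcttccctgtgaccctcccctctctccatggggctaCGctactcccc
Ltf: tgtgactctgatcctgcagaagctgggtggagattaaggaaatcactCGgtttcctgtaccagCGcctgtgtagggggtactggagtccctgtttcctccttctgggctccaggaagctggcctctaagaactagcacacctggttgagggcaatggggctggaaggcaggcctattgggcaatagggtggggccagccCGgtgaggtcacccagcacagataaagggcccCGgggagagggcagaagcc
Ngp: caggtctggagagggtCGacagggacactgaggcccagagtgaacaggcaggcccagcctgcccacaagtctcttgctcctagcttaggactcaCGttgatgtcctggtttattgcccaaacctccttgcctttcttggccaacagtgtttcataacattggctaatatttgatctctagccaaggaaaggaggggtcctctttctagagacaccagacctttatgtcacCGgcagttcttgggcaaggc
These 4 windows hold 3, 2, 4 and 3 CGs. Prtn3 has 4, Ctsg has 7 and Camp, S100a8 and S100a9 have 2 each, against a median of 6 over the 32851 promoters of the table. Mmp9 is named only. The deposited calls in these windows ranged from 0 to 6 per library for any of the first 4 genes, too few for a value. The letters GAGGAA, the core of many PU.1 sites, occurred on either strand in 6 of the 9 windows (Elane, Prtn3, Mpo, Ctsg, Ltf and S100a8) and in 23.3% of all promoters of the table. TTGCNNAA, a C/EBP motif, occurred in 3 (Ltf, Ngp and S100a9) and in 9.56% of all promoters. The RUNX letters TGTGGT occurred in 2 (Ctsg and S100a9) and in 14.0% of all, and TGCGGT in 0, against 5.10% of all. The 4 motifs do not contain each other. These matches describe letters only.

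The libraries held 112671408 to 157223205 calls. CD11b-negative 2 and CD11b-positive 2 stood apart from the other 10. They listed 6500217 and 6823989 CpGs (2826185 to 5712096 in the other 10). Their mean methylation over the common CpGs was 35.5% and 35.9% (31.0% to 34.5% in the other 10). Their Y share, the calls on 8 genes of the Y chromosome in 1000000 autosomal calls, was 40.2 and 41.3 (5.52 to 25.04 in the other 10). By group the Y share ran from 5.52 to 18.6 in PBS, from 8.64 to 40.2 in CD11b-negative and from 23.8 to 41.3 in CD11b-positive libraries, so it did not overlap between PBS and CD11b-positive. Results are therefore given with and without the libraries numbered 2 where these matter.

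The plot of locus methylation by library shows all 7 measured genes. A locus level is the methylated share of all calls at its common CpGs. Over all 18114 loci the median level was 24.4% in PBS.

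**Figure D1:**
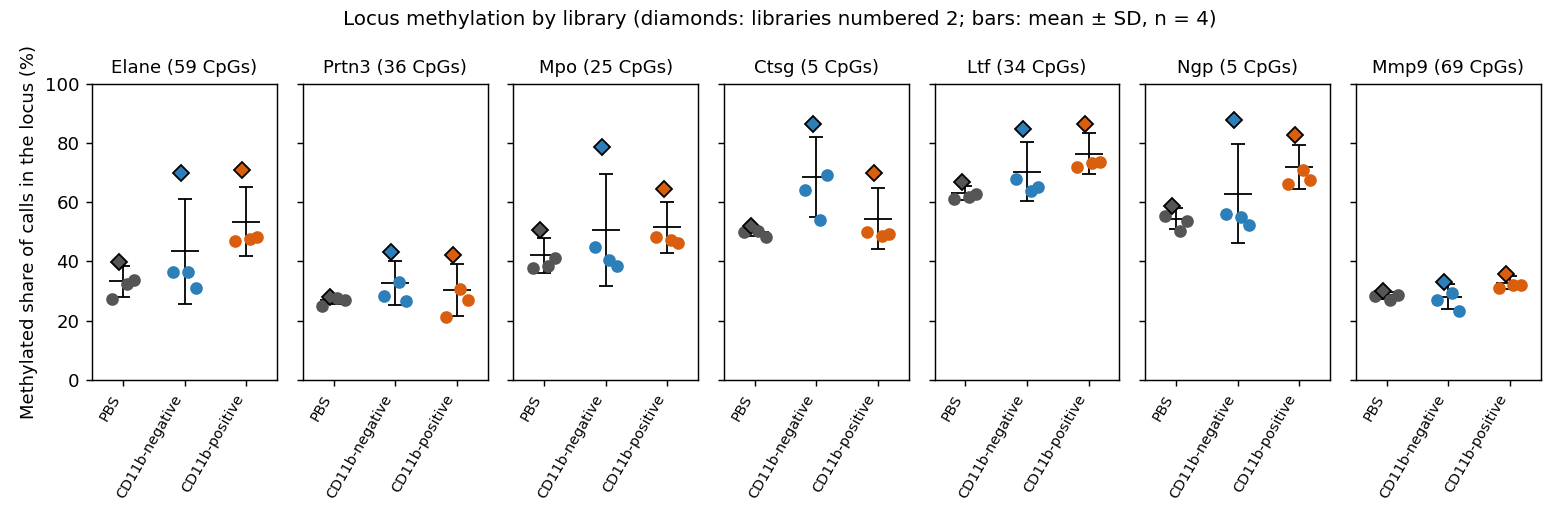
Methylated share of calls (%, vertical axis) at the 7 measured loci in each library, with PBS in grey, CD11b-negative in blue and CD11b-positive in orange. Horizontal marks and bars give the mean ± SD of 4 libraries and diamonds the libraries numbered 2, which reach 69.8% and 70.8% at Elane, far above the 30.9% to 48.3% of the other sorted libraries.

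The first comparison, CD11b-positive with PBS, asks how the CD11b-positive cells of treated mice differ from untreated leukaemia cells. Methylation rose at the loci of Elane, Ltf and Ngp, by 20.1, 13.2 and 17.3 percentage points, and at none of the 7 loci did it fall by the same rule. A locus or CpG was called where the adjusted p of a quasi-binomial F test was under 0.05 and the group means differed by at least 10 points. Among all 18114 loci, 19.4% were called higher and 3.36% lower, so a gain was common across the genome. The members' median difference was 9.47 points, against 3.13 over all loci. CD11b-positive libraries all lay above all PBS libraries at 4 of the 7 loci (Elane, Ltf, Ngp and Mmp9), against 44.3% of all loci. Among the 201 CpGs, 60 rose and 2 fell (29.9% and 0.995%), where 13.2% and 3.47% of all common CpGs did.

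Split by methylation class, the shares lay closer together for CpGs of middle level. Members had 106 CpGs with a mean level of 20% to 80% over the 12 libraries. Of these 48.1% rose, close to the 44.9% among all 261833 common CpGs of that class. A loss was called at 0.943% of these member CpGs and at 11.4% of the class. Among the 64 member CpGs under 20%, 6.25% rose, against 1.09% of the class, and among the 31 over 80%, 16.1% rose, against 7.21%. The called gains comprised 26 CpGs in the body of a member gene, 27 in another annotated gene within the 5 kb flank and 7 outside genes. Of the 9 genes with a start in the promoter table, Elane was the only member with common CpGs within 1000 bp of it, and none of these 3 was called.

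Elane (chromosome 10, 79886312 to 79888216) encodes neutrophil elastase, a serine protease. Its locus level was 27.2%, 39.9%, 32.4% and 33.8% in PBS 1 to 4 and 46.8%, 70.8%, 47.6% and 48.3% in CD11b-positive 1 to 4. CD11b-negative 1 to 4 had 36.5%, 69.8%, 36.4% and 30.9%. All CD11b-positive libraries lay above all PBS libraries, and CD11b-negative 2 lay with CD11b-positive 2, far from the other CD11b-negative libraries. The group means were 33.3% ± 5.22, 43.4% ± 17.8 and 53.4% ± 11.6 (SD, n = 4 each) in PBS, CD11b-negative and CD11b-positive cells. The rise of CD11b-positive over PBS had an adjusted p of 0.0106 in the quasi-binomial test across all loci, and of 0.00533 without CD11b-positive 2 (14.2 points). In a fit of all 12 libraries it was 0.0609, and Elane was then not called.

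The gain at the Elane locus lay beyond the gene. Elane's own body held 3 common CpGs, 482 to 600 bp from the start, with means of 44.4% ± 2.49 in PBS, 53.0% ± 20.1 in CD11b-negative and 43.1% ± 22.1 in CD11b-positive cells (SD, n = 4 each). With the gene body alone, the Elane difference was -1.36 points (adjusted p = 0.988). CD11b-positive 1 had 14.4% there, lower than every PBS library (41.7% to 47.1%), and CD11b-positive 2 had 67.3%. Farther on, 8 CpGs at 2417 to 2510 bp from the Elane start lie in the pseudogene Gm19810 (79888667 to 79889014), and 5 of them rose. Their mean was 48.2% ± 4.97 in PBS and 71.2% ± 11.7 in CD11b-positive cells. The next 19 CpGs, 5500 to 6178 bp from the start, lie inside Cfd (79890853 to 79892655), the gene of complement factor D, and all 19 rose. Their PBS libraries had 23.1%, 42.8%, 30.2% and 32.2%, and their CD11b-positive libraries 62.8%, 87.3%, 55.9% and 57.5%, with no overlap. CD11b-negative 1 to 4 had 44.5%, 86.3%, 33.0% and 30.9% at these CpGs in Cfd. The largest called gain at the locus was 47.6 points, at position 79892192 in Cfd (adjusted p = 0.00226). In the fit of all 12 libraries 8 CpGs of the Elane locus were called higher, against 24.

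**Figure D2:**
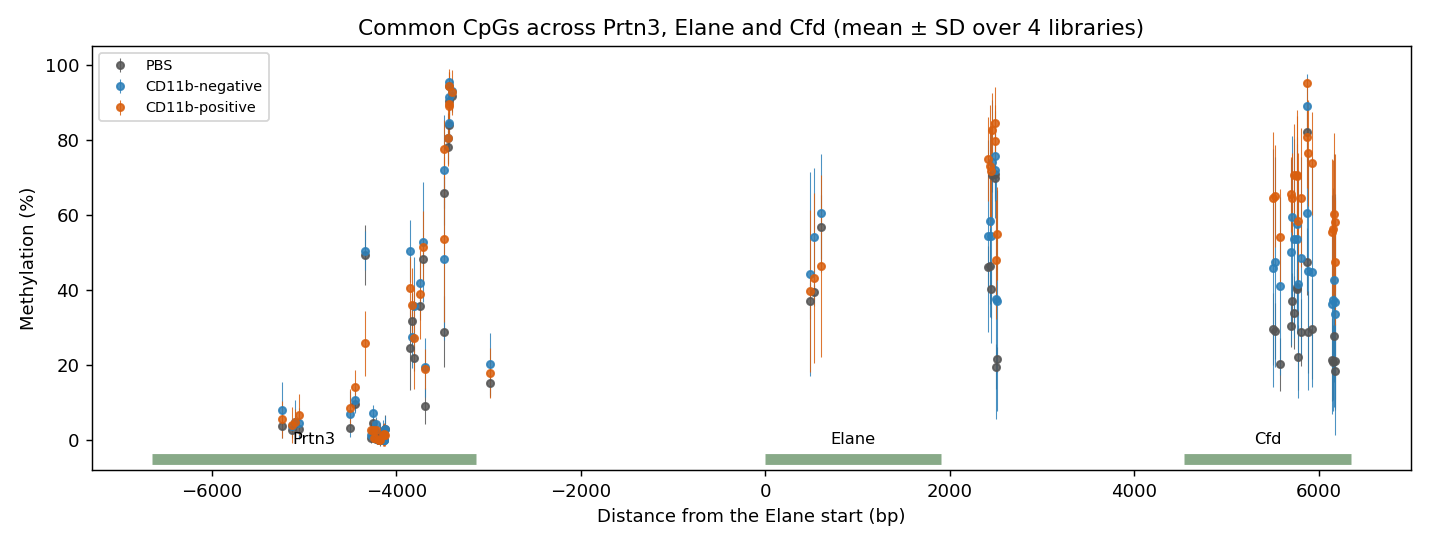
Methylation (%, mean ± SD over 4 libraries per group) of each common CpG against its distance in bp from the Elane start, with green bars for the bodies of Prtn3, Elane and Cfd. Over the 28 CpGs at the end of Prtn3 the group means lie between 27.9% and 31.6%, whereas over Cfd they are 65.9% in CD11b-positive and 32.1% in PBS. The CD11b-negative mean over Cfd (48.7% ± 25.8) joins CD11b-negative 2 at 86.3% with libraries at 30.9% to 44.5%, which overlap PBS.

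Prtn3 (chromosome 10, 79879667 to 79883174) encodes proteinase 3, a close relative of elastase and the gene just upstream of Elane. Its locus level was 24.9%, 28.0%, 27.7% and 27.0% in PBS 1 to 4 and 21.3%, 42.1%, 30.6% and 26.9% in CD11b-positive 1 to 4, so the groups overlapped. CD11b-negative libraries had 28.4%, 43.1%, 33.0% and 26.4%. The difference of CD11b-positive from PBS was 3.36 points (adjusted p = 0.394), and -0.614 points without CD11b-positive 2. None of its 36 CpGs was called. The gene body held 4 CpGs with a PBS mean of 3.49% ± 0.519 and 28 with a mean of 27.9% ± 0.681. The most different CpG, at 79882825, had 28.9% ± 9.52 in PBS and 53.5% ± 22.0 in CD11b-positive cells (adjusted p = 0.0940). A CpG at 79881969, 2302 bp from the start, had 49.4% ± 8.02 in PBS, 50.5% ± 5.27 in CD11b-negative and 25.8% ± 8.64 in CD11b-positive cells, and was the most different between the sorted groups (adjusted p = 0.607). It was not called in any of the 3 comparisons.

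Mpo (chromosome 11, 87793784 to 87804412) encodes myeloperoxidase, the haem enzyme that makes hypochlorous acid. Its 25 CpGs all lay in the gene body. The locus level was 37.8%, 50.6%, 38.5% and 41.2% in PBS 1 to 4, 44.8%, 78.5%, 40.4% and 38.4% in CD11b-negative 1 to 4 and 48.3%, 64.4%, 47.1% and 46.3% in CD11b-positive 1 to 4. PBS 2 lay above 3 of the CD11b-positive libraries. The difference of 9.47 points from PBS (adjusted p = 0.0927) was not called. It was called with a minimum of 20 calls per CpG (15.5 points, adjusted p = 0.0384) and without PBS 2 (12.3 points, adjusted p = 0.0420). Without CD11b-positive 2 the difference was 5.19 points (adjusted p = 0.257).

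Within Mpo the CpGs differed by place. The 12 CpGs at 3633 to 3837 bp from the start had 65.6% ± 4.31 in PBS and 64.0% ± 8.09 in CD11b-positive cells. At 7318 to 7411 bp a patch of 7 CpGs had 14.5%, 38.4%, 20.5% and 23.2% in PBS 1 to 4, and 6 of the 7 were called higher in CD11b-positive cells. The CD11b-positive libraries there had 57.8%, 71.5%, 33.9% and 42.9%, so PBS 2 overlapped the CD11b-positive group. CD11b-negative 2 had 87.5% there and the other CD11b-negative libraries 19.2% to 31.2%. The largest gain was 29.8 points, at 87801159 (adjusted p = 0.0246). Of the 25 Mpo CpGs, 0 were called without PBS 1, without PBS 3 or in the fit of all 12 libraries, and 1 without PBS 4, CD11b-positive 1 or CD11b-positive 2.

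Ctsg (chromosome 14, 56099885 to 56102574, minus strand) encodes cathepsin G, another serine protease of azurophil granules. It had 5 common CpGs, all in the gene body, 1647 to 1806 bp from the start. PBS libraries had 49.9%, 51.9%, 50.3% and 48.2%, CD11b-negative libraries 64.1%, 86.4%, 54.1% and 69.3%, and CD11b-positive libraries 50%, 69.9%, 48.6% and 49.2%. Only CD11b-positive 2 lay apart from PBS, and the difference of 4.37 points (adjusted p = 0.550) was -0.797 without that library. Its most different CpG from PBS, at 56100861, had 17.6% ± 2.67 in PBS and 33.3% ± 27.2 in CD11b-positive cells (adjusted p = 0.147).

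Ltf (chromosome 9, 111019292 to 111042766) encodes lactoferrin, the iron-binding protein of specific granules, and its gain lay within the gene itself. Its locus level was 61.2%, 66.7%, 61.7% and 62.9% in PBS 1 to 4 and 71.8%, 86.5%, 73.4% and 73.5% in CD11b-positive 1 to 4, without overlap. CD11b-negative 1 to 4 had 67.7%, 84.8%, 63.6% and 65.2%. The mean rose from 63.1% ± 2.48 to 76.3% ± 6.86 (adjusted p = 0.00853). Without CD11b-positive 2 the difference was 9.80 points (adjusted p = 0.00253), just under the 10 points a call needed. With the gene body alone it was 14.2 points (adjusted p = 0.00578), and Ltf was the only one called of the 6 members with common CpGs in the body.

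Of the 34 CpGs of Ltf, 17 rose and 1 fell (9 and 1 in the fit of all 12 libraries). The gains were spread over the gene, 15 of them in its body. A patch of 10 CpGs at 3010 to 3542 bp from the start went from 68.3% ± 1.92 in PBS to 86.5% ± 6.02 in CD11b-positive cells, with 6 CpGs called. A patch of 7 CpGs at 6553 to 6828 bp went from 46.3% ± 4.57 to 66.9% ± 8.24, with 5 called. Another of 9 CpGs at 21160 to 21421 bp went from 75.2% ± 1.69 to 88.6% ± 4.90, with 3 called. In all 3 patches every CD11b-positive library lay above every PBS library. A lone CpG at 19651 bp went from 29.0% ± 1.62 to 59.1% ± 7.03 and was called. The largest gain was 43.8 points, at 111022719 (adjusted p = 0.00242), where PBS libraries had 20.6% to 36.1% and CD11b-positive libraries 59.5% to 93.6%.

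The flanks of Ltf went both ways. Upstream, 2 CpGs at -3501 and -3424 bp had 33.6% ± 9.80 in PBS and 68.8% ± 15.02 in CD11b-positive cells, and both were called. The 4 CpGs nearest the start, at -1554 to -1457 bp, had 44.4% ± 5.41 and 45.6% ± 15.6, and none was called. Downstream, a CpG at 111047435, 4669 bp past the gene end, fell by 41.3 points (adjusted p = 0.00301). It had 89.5%, 66.3%, 74.1% and 71.1% in PBS 1 to 4, 44.9%, 13.2%, 73.2% and 69.4% in CD11b-negative 1 to 4 and 38.0%, 8.39%, 43.0% and 46.3% in CD11b-positive 1 to 4. The libraries numbered 2 of both sorted groups were the lowest of their group here and the highest of their group in the 3 patches of the gene body.

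**Figure D3:**
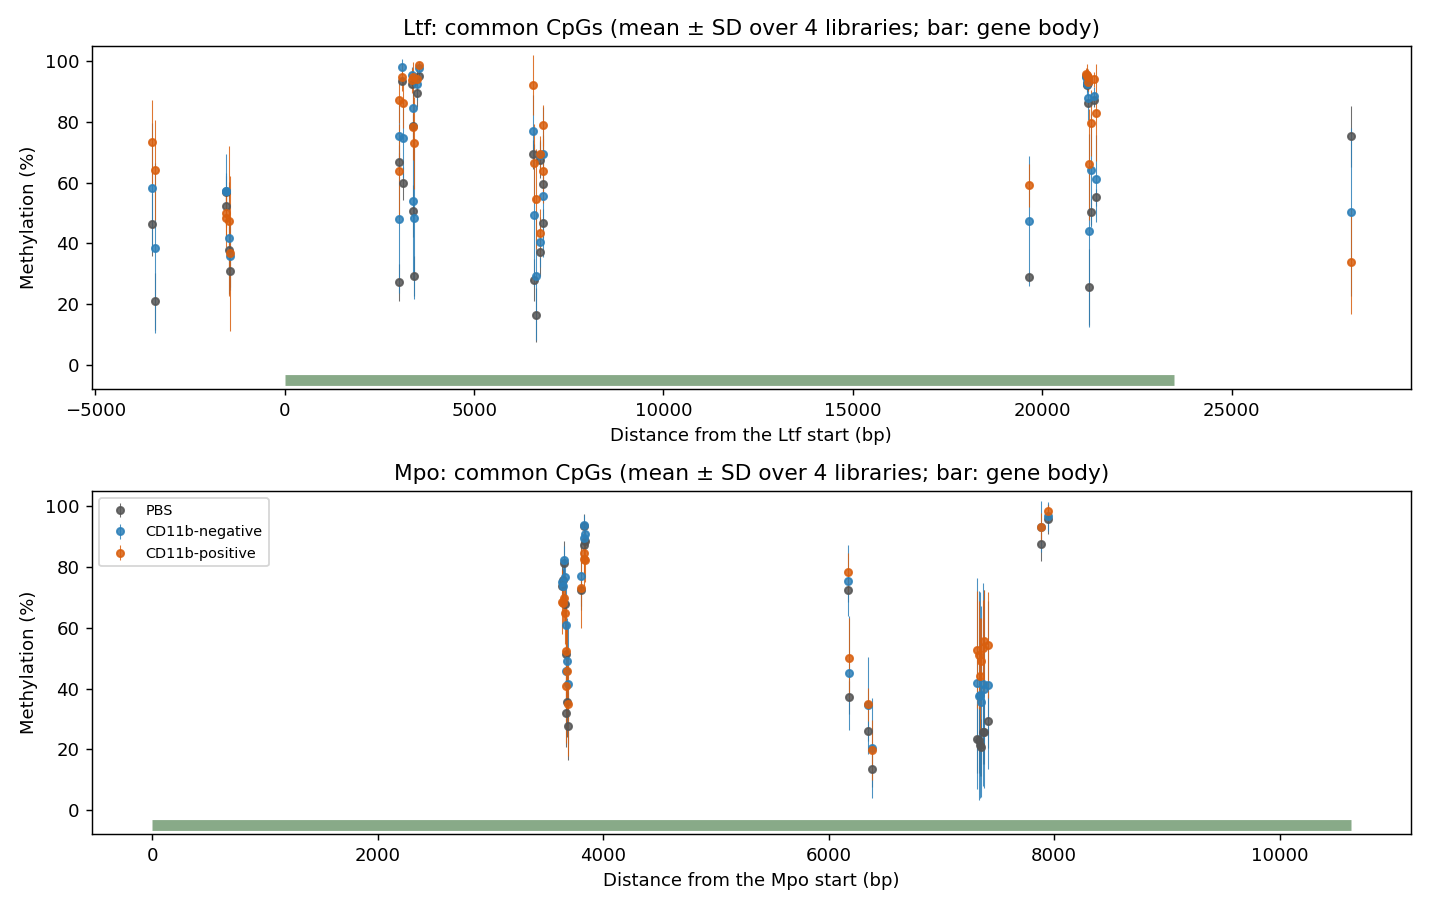
Methylation (%, mean ± SD over 4 libraries per group) of each common CpG of Ltf (upper panel) and Mpo (lower panel) against its distance in bp from the gene start, with a green bar for the gene body. At Ltf the CD11b-positive points lie above PBS in most patches and at 33.9% against 75.2% at the last CpG, and at Mpo they part from PBS chiefly in the patch at 7318 to 7411 bp.

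Ngp (chromosome 9, 110419808 to 110423012) encodes neutrophilic granule protein, a cystatin-like protein of specific granules. Its 5 common CpGs all lay in the flanks. PBS libraries had 55.5%, 58.7%, 50.1% and 53.5%, CD11b-negative libraries 56.1%, 87.7%, 55.1% and 52.2%, and CD11b-positive libraries 66.3%, 82.5%, 70.7% and 67.4%. The CD11b-positive libraries lay above all PBS libraries, and the difference was 17.3 points (adjusted p = 0.0123), or 13.7 points (adjusted p = 0.0111) without CD11b-positive 2. In the fit of all 12 libraries the adjusted p was 0.0716, Ngp was not called, and 2 of its CpGs were called higher, against 4. An upstream CpG at -4315 bp had 10.9%, 29.2%, 13.2% and 22.3% in PBS 1 to 4 and 41.4%, 64.4%, 35.7% and 34.8% in CD11b-positive 1 to 4, and was called. The other 4 CpGs lie inside Klhl18 (110425926 to 110476737), a neighbouring gene, 7060 to 7100 bp from the Ngp start. They went from 70.3% ± 1.35 to 85.9% ± 4.67, and 3 of them were called. The largest gain at the Ngp locus was 26.0 points, at 110426896 in Klhl18 (adjusted p = 0.00456).

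Camp, on the same chromosome, encodes the precursor of the cathelicidin peptide of specific granules. All of its calls, at any CpG listed in a library, gave 55.7%, 39.3%, 47.0% and 48.0% methylated in PBS 1 to 4, from 28 to 79 calls. CD11b-positive 1 to 4 had 69.0%, 89.2%, 74.4% and 60%, from 83 to 121 calls, and lay above all PBS libraries. CD11b-negative 1 to 4 had 61.5%, 89.1%, 68.1% and 80%, but from 13, 92, 47 and 5 calls. For the library with 5 calls the 95% Wilson interval was 37.6% to 96.4%. The CpGs behind these values differ between libraries, so no test was made and the values do not compare like with like.

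S100a8 and S100a9, the calprotectin subunits, were covered still less. S100a8 had 72.0%, 77.8%, 75.7% and 75.9% methylated in PBS 1 to 4 and 74.0%, 89.1%, 83.8% and 82.4% in CD11b-positive 1 to 4, from 18 to 214 calls per library at 2 to 19 CpGs. Its CD11b-negative libraries had 33.3%, 85.2%, 81.8% and 61.9% from 9, 142, 88 and 21 calls. The 3 groups overlapped. S100a9 had 1 to 6 calls per PBS library, 0 to 22 per CD11b-negative library and 12 to 29 per CD11b-positive library, which is too few for a level.

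Mmp9 (chromosome 2, 164940326 to 164955850) encodes gelatinase B, the metalloproteinase of gelatinase granules. With 69 CpGs it had the most of all members. Its locus level was 28.3%, 29.98%, 27.0% and 28.7% in PBS 1 to 4, 26.8%, 33.0%, 29.4% and 23.1% in CD11b-negative 1 to 4 and 30.9%, 35.9%, 32.0% and 32.1% in CD11b-positive 1 to 4. The CD11b-positive libraries lay just above all PBS libraries. The difference of 4.22 points had an adjusted p of 0.0322 and was under the 10 points a call needed.

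The small mean difference at Mmp9 joined CpGs of both signs, with 9 called higher and 1 lower. The 9 became 3 without PBS 1, 2 without PBS 3, 5 without PBS 4 and 2 in the fit of all 12 libraries. The 1 lower became 0 in these 4 fits and without CD11b-positive 3, and 2 without CD11b-positive 2. In the gene body, 12 CpGs between 164950277 and 164950582 had 4.91% ± 1.40 in PBS and 14.0% ± 4.15 in CD11b-positive cells, without overlap, and 3 of them were called. Past the higher gene end, 9 CpGs between 164957104 and 164957285 had 66.8% ± 2.48 and 75.9% ± 4.61, with 4 called. The largest gain of the locus, 23.9 points at 164957104 (adjusted p = 0.0109), was among them. The called loss, of 15.3 points at 164949397 (adjusted p = 0.0299), had 11.9% to 26.3% in PBS and 2.94% to 5.41% in CD11b-positive libraries, from 16 to 54 calls. In the flank at the lower coordinate, 3 CpGs had 70.2% ± 0.627 in PBS and 60.1% ± 2.60 in CD11b-positive cells. These libraries did not overlap, and none of the 3 CpGs was called. Unmethylated stretches stayed near 0 in every group, such as the 9 CpGs at the edge of Slc12a5 with 0.775% ± 0.383 in PBS and 0.850% ± 0.645 in CD11b-positive cells.

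The plot of differences by patch sets these places side by side, a patch being a run of common CpGs with gaps of at most 300 bp.

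**Figure D4:**
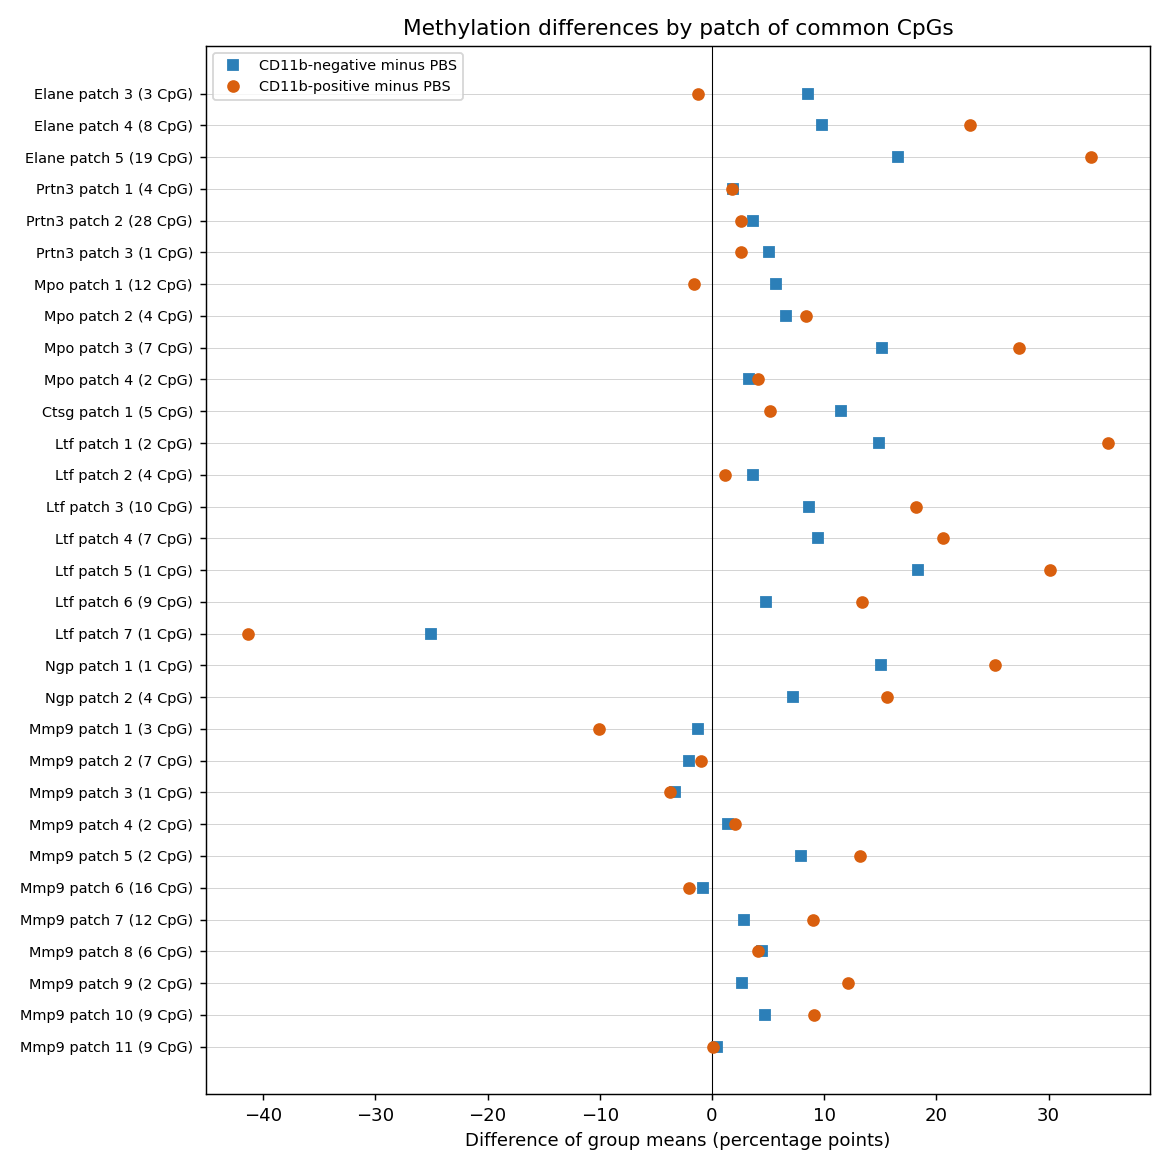
Difference of group means in percentage points (horizontal axis) for each patch of common CpGs, numbered along the chromosome, with CD11b-negative minus PBS as blue squares and CD11b-positive minus PBS as orange circles. The circles of the Cfd patch (Elane patch 5, 33.8 points), the upstream Ltf patch (35.3) and Mpo patch 3 (27.3) lie far right, the downstream Ltf CpG lies at -41.3, and Prtn3 patches 1 to 3 lie between 1.78 and 5.04 (the CpGs of Elane patch 3, also in the Prtn3 locus, are drawn once).

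These calls moved with the Y share. When the Y share was added to the fit as a term, 0 of all 18114 loci and 0 of the 201 member CpGs were called in this comparison. Of all 1052856 common CpGs, 1143 (0.109%) were called in that fit. The unadjusted p was then under 0.05 at 1 of the 7 member loci and 13 of the member CpGs, beside 2802 of all loci and 71827 of all common CpGs. Adjusted for the Y share by least squares on the library percents, the difference was -1.30 points at Elane, 1.23 at Ltf and 4.99 at Ngp. The Y share did not overlap between the 2 groups, so the term and the group cannot be told apart here.

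The second comparison, CD11b-negative with PBS, asks whether the treated cells that lack CD11b differ from untreated cells. No member locus was called (0% of all 18114 loci were called higher and 0% lower), and none of the member CpGs was called (0% of all common CpGs in either direction). Without adjustment, p was under 0.05 at 0 of the 7 loci and at 7 of the 201 CpGs in the quasi-binomial test. Over all features this held at 978 of 18114 loci and 52881 of 1052856 CpGs. limma on log2 ratios called 0 loci as well, with 1 of the 7 under 0.05 before adjustment, beside 1057 of all 18114. The differences were 10.1 points at Elane, 5.85 at Prtn3, 8.50 at Mpo, 7.23 at Ltf, 8.36 at Ngp and -0.383 at Mmp9. Without CD11b-negative 2 they were 1.28, 2.39, -0.836, 2.40, 0.0498 and -2.01 points.

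Ctsg was the member with the largest difference between CD11b-negative and PBS cells. It had 68.4% ± 13.5 in CD11b-negative and 50.1% ± 1.53 in PBS cells, 18.4 points apart (adjusted p = 0.735). Its CD11b-negative libraries all lay above all PBS libraries, as at 5.58% of all loci, and it was the only member of which this held. The difference was 12.4 points (adjusted p = 0.422) without CD11b-negative 2. It rests on 5 CpGs with 176 to 417 calls per library, and it depends on how these CpGs are weighted. With the 5 CpGs weighted equally, CD11b-negative 1 to 4 had 43.8%, 84.4%, 43.5% and 46.1%. PBS libraries then had 42.1% to 43.6%, so the 2 groups overlapped, and only CD11b-negative 2 lay far from PBS. The CpG with the largest difference in this comparison, shared by the Elane and Prtn3 loci, was 79882462 in the Prtn3 body, with 24.5% ± 11.2 in PBS and 50.4% ± 8.13 in CD11b-negative cells (adjusted p = 0.755). It had 13 to 40 calls per library.

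The third comparison, CD11b-positive with CD11b-negative, asks how the sorted subsets of treated mice differ from each other. No member locus was called, nor was any of all 18114 loci (0% higher and 0% lower), and the same held for CpGs (0% and 0%). Before adjustment, the quasi-binomial p was under 0.05 at 0 of 7 loci and 16 of the 201 CpGs. Over all features this held at 3619 of 18114 loci and 71713 of 1052856 CpGs. limma on log2 ratios called 0 loci, with 0 of 7 under 0.05 before adjustment, beside 2034 of all 18114. The differences were 9.98 points at Elane (adjusted p = 0.313), 8.93 at Ngp, 5.99 at Ltf, 4.61 at Mmp9, 0.968 at Mpo, -2.49 at Prtn3 and -14.0 at Ctsg. At 0 of the 7 loci did all CD11b-positive libraries lie above all CD11b-negative ones, against 5.03% of all loci.

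Library number mattered in this comparison, although it is not known whether same-numbered libraries are pairs. With the replicate number as a block, 30 of the 201 CpGs were called, 28 higher and 2 lower in CD11b-positive cells, beside 6.76% of all common CpGs in that fit. Still 0 of the 7 loci were called, beside 0.298% of all loci. Elane then had an adjusted p of 0.0728 and Ltf of 0.0766. The called gains were 16 CpGs of the Elane locus, 10 of Ltf, 1 of Ngp and 1 of Mmp9. Without CD11b-negative 2, Elane (18.8 points, adjusted p = 0.0258), Ltf (10.8 points, adjusted p = 0.0419) and Ngp (17.2 points, adjusted p = 0.0408) were called, with 29 CpGs, beside 19.05% of all loci and 7.32% of all common CpGs. Without both sorted libraries numbered 2, Elane (13.0 points, adjusted p = 0.0112) and Ngp (13.7 points, adjusted p = 0.0313) were called, with 33 CpGs. In that fit 14.1% of all loci (2192 higher and 362 lower) and 8.40% of all common CpGs were called. That last fit was chosen after the data were seen.

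Other granulocyte genes were listed by role. Of 39 genes, 32 had a measured locus, and in CD11b-positive against PBS cells 14 of them rose and 0 fell, beside 19.4% and 3.36% of all loci. Their median difference was 7.27 points, against 3.13 over all loci. Among specific granule genes 5 of 9 rose (Chil3, Pglyrp1, Cd177, Hp and Cybb), and among azurophil granule genes 2 of 5 (Bpi, which encodes a bactericidal protein, and Lyz2, lysozyme). Of the gelatinase granule and secretory vesicle genes 2 of 5 rose, Adam8 and Itgam, and of the transcription factors 2 of 7, Cebpe and Runx1. Of 3 receptor genes Cxcr2 rose, and of 3 measured eosinophil, basophil and mast cell genes Epx and Mcpt8. None of the 32 was called in the other comparisons.

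The largest of these gains were at Mcpt8, Cxcr2 and Cybb. Mcpt8, a basophil protease gene, went from 34.8% ± 11.7 to 70.8% ± 10.4 (adjusted p = 0.0277) on 1 CpG. Cxcr2, the receptor that guides neutrophils to chemokines, went from 23.8% ± 4.66 to 51.5% ± 9.35 (adjusted p = 0.00452) on 4 CpGs. Cybb, the X-linked NADPH oxidase subunit, went from 52.3% ± 3.29 to 77.3% ± 13.0 (adjusted p = 0.0493) on 3 CpGs. Itgam, which encodes the CD11b used in the sort, had 48.5% ± 3.74 in PBS, 61.3% ± 14.4 in CD11b-negative and 70.7% ± 8.39 in CD11b-positive cells over 9 CpGs. It rose over PBS by 22.2 points (adjusted p = 0.00391), and its difference between the sorted groups was 9.42 points (adjusted p = 0.271). Itgam is given because it was the sort marker.

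Some genes that mark other blood cells were called too. In CD11b-positive against PBS cells 3 of 7 measured T cell marker loci rose and 3 of 7 of B cells. So did 2 of 5 of erythroid cells and 1 of 4 of dendritic cells, and none of these fell. Among all loci 19.4% rose and 3.36% fell, and among the other granulocyte genes 14 of 32 rose. Gains were thus not particular to granulocyte genes. Methylation of a marker locus does not count cells, and the part of a cell mixture in the granule gene results was not tested.

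The locus whose methylation was most like that of Elane over the 12 libraries was Spata31d1a (Pearson r = 0.996), followed by Izumo2 (0.995), Cldn19 (0.994), F2 (0.994) and Piwil4 (0.993). Of 15389 loci compared, 18.3% had r over 0.9, so likeness to Elane was widespread. Among the members, r with Elane was 0.985 for Ltf, 0.970 for Ngp, 0.928 for Mpo, 0.849 for Mmp9, 0.790 for Prtn3 and 0.601 for Ctsg. The lowest r between members was 0.147, for Ctsg and Mmp9. These values share the libraries and the groups, and the libraries numbered 2 weigh on all of them. The loci of Elane and Prtn3 also share 32 CpGs, so their r partly sets the same CpGs against themselves.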

How the data were processed

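DNA methylation was measured by reduced representation bisulfite sequencing in 12 libraries. The deposited values are raw counts of methylated and unmethylated reads at each CpG cytosine of either strand, 1 library per file. The submitters' processing notes name Bismark, methylKit 1.20.0, Trim Galore 0.6.4 and cutadapt 2.7 as tools and mm10 as the build. Not given in the sources used here are the Bismark settings, the conversion rate and any removal of duplicates. The files keep no molecular identifiers, so intervals cover counting error only.

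Strands were summed, and CpGs with at least 10 calls in all 12 libraries on the autosomes and X were kept. Gene ends came from RefSeq GRCm38.p6, and strand from its promoter table. Counts were summed per locus. Methylated against unmethylated counts were tested by a quasi-binomial logistic F test with Pearson dispersion moderated by empirical Bayes (the method of squeezeVar in limma 3.58.1) in bins of methylation bounded at 5%, 20%, 80% and 95%, and not under 1, on the 8 libraries of the groups compared. The Benjamini-Hochberg adjustment ran over all 18114 loci or all 1052856 CpGs. The method was tested on simulated data with the same dispersion at every locus and no outlying library. That setting differs from these data, so it does not show how outlying libraries affect the calls. Code ran in Python 3.11.15. Libraries were grouped by their titles and group labels. The CD11b-negative group was read as such from its label (bulk CD11b-CMM cells) and the sorting text, not from the titles alone. Genes, lists and rules were chosen with earlier results of these data known. Single CpGs named are the largest called gain and loss per gene and comparison or, with none called, the largest difference. From the other lists the 3 largest called changes are given with values, plus Itgam, chosen after its values were seen. The monocyte and macrophage marker list is not reported here.

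The replicate numbers of the titles were checked for pairing by correlating the deviations of same-numbered libraries from their group means over loci. For CD11b-positive and CD11b-negative the r was 0.227, 0.909, 0.601 and 0.661 for numbers 1 to 4, all over 0.1. By that rule these numbers would count as pairs, although only number 2 correlated best with its own number. The main fit of every comparison held no term for pairs, and the replicate block was an alternative only. The check cannot decide the pairing, because both groups hold an outlying library numbered 2. That library pulls its group mean, so the other libraries of both groups tend to deviate in the same direction. For comparisons with PBS, number 4 had a negative r, and the numbers were not taken as pairs. Yet in CD11b-negative against PBS numbers 1, 2 and 3 correlated best with their own number. In CD11b-positive against PBS numbers 1 and 2 did, so own-number matches were no rarer with PBS than between the sorted groups. Alternatives were other coverage minimums, flanks, thresholds and tests, a fit of all 12 libraries, the Y share as a term, the block, and each library left out.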

Additional observations from a re-analysis of the deposited data

Results flagged for a closer look

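Within a group of 4 libraries, 7 of the 21 locus levels tested had an outlying library. Chance flags about 1 in 20 independent levels, but these 21 share libraries and are not independent. All 7 were the library numbered 2 of a sorted group. CD11b-negative 2 had 87.7% at Ngp (next highest 56.1%), 69.8% at Elane (next 36.5%) and 78.5% at Mpo (next 44.8%). CD11b-positive 2 had 86.5% at Ltf (next 73.5%), 70.8% at Elane (next 48.3%), 64.4% at Mpo (next 48.3%) and 69.9% at Ctsg (next 50%). The same libraries had the highest Y shares, 40.2 and 41.3, and their part in these values was not tested.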

How the results depend on the processing

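For CD11b-positive against PBS, the 3 called loci became 1 in a fit of all 12 libraries, 1 with the gene body alone and 0 with the Y share as a term, and the 62 called CpGs became 22 and 0 in the first and last of these. The called share of all loci went from 22.8% to 16.0%, 22.9% and 0% in these fits. Of all common CpGs it went from 16.7% to 7.22% and 0.109%. Leaving out 1 library gave 2 to 4 loci and 40 to 60 CpGs (40 without PBS 1), beside 18.0% to 23.9% of all loci and 11.3% to 16.4% of all common CpGs. The replicate block gave 3 loci and 69 CpGs there (21.8% of all loci and 18.4% of all common CpGs). It gave 0 of both for CD11b-negative against PBS (0% and 0.00256% of all). For CD11b-positive against CD11b-negative, 0 called loci became 2 without both sorted libraries numbered 2, and 0 to 3 without 1 library. Of all loci, 14.1% and 0% to 19.05% were called in these fits. The 0 called CpGs became 30 with the replicate block, 33 without both libraries and 0 to 29 without 1 library. Of all common CpGs, 6.76%, 8.40% and 0% to 7.32% were called in these fits. Leaving out CD11b-negative 2 gave the 3 and the 29. The cause was not tested.

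Signs changed as follows. Differences with the Y share as a term come from least squares on the library percents, not from the quasi-binomial fit. With the Y share as a term, CD11b-positive minus PBS was -1.30 points at Elane, -8.61 at Prtn3, -8.29 at Mpo and -11.3 at Ctsg. CD11b-negative minus PBS was then -0.619 at Mpo, and CD11b-positive minus CD11b-negative was -2.75 at Elane, -11.4 at Mpo, -1.10 at Ltf and -1.90 at Ngp. With the gene body alone Elane was -1.36 against PBS and -10.2 against CD11b-negative. Mmp9 in CD11b-negative minus PBS was 0.0385 at 5 calls per CpG, 1.73 with 2 kb flanks, 0.793 with the gene body and 1.41 as an unweighted mean. Without 1 library the ranges were -0.614 to 6.34 (Prtn3) and -0.797 to 6.30 (Ctsg) for CD11b-positive minus PBS. They were -2.01 to 1.28 (Mmp9) and -0.836 to 12.5 (Mpo) for CD11b-negative minus PBS. For CD11b-positive minus CD11b-negative they were -3.32 to 10.3 (Mpo) and -6.46 to 0.967 (Prtn3). Over all alternatives the adjusted p for CD11b-positive against PBS ran from 0.00165 to 0.988 at Elane, 0.00253 to 0.973 at Ltf, 0.00553 to 0.702 at Ngp and 0.0247 to 0.314 at Mpo. Against CD11b-negative it ran from 0.0112 to 0.671 at Elane, 0.0195 to 0.634 at Ltf and 0.0313 to 0.704 at Ngp. Ngp gave no value with 2 kb flanks or the gene body alone, where it had no common CpG. Few calls limit Camp, S100a8, S100a9 and the 9 promoters examined, which had no common CpG, and the cause was not tested. Ctsg and Ngp rest on 5 CpGs each.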
